A study of Mus musculus with 18 samples.

Results

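Potassium channel genes were taken as the genes whose symbol starts with Kcn followed by a lower-case letter, which covers pore-forming subunits and the auxiliary subunits that bind to them. Of 98 such symbols among 24419 in the table, 37 had 1 FPKM or more in any of the 18 mice and are described here. FPKM counts fragments per length of transcript and per mapped fragment of the library, so levels can be set side by side between genes. The mice were C57BL/6, 8 weeks old and, by the study's methods, male. They made 6 groups of 3: a control group, also called sham by the study, and mice sampled 10 min, 1 h, 6 h, 24 h or 72 h after the proximal left anterior descending coronary artery had been tied to give an acute myocardial infarction (AMI). All were anaesthetised with sodium pentobarbital, and RNA with a poly(A) tail came from the left ventricle, from infarcted tissue in the ligated mice, so each value is a mean over all cells of a piece of tissue. The 37 genes held 14 of 40 voltage-gated subunits, 7 of 17 auxiliary subunits, 7 of 15 inward rectifiers, 4 of 14 two-pore-domain channels and 5 of 8 channels opened by calcium or sodium. Of the 61 symbols left out, 9 were listed at 0 in all 18 mice. Just inside the limit stood Kcnd1, with a highest FPKM of 1.10, and just outside it Kcna6 with 0.911 and Kcnj14 with 0.901. Kcnq1, which carries the slow delayed rectifier current of large mammals, reached at most 0.677 FPKM and was left out. In 8 of the 37, among them Kcnab2, Kcnd1, Kcne1l, Kcnj15, Kcnn3, Kcnn4 and Kcnt2, an FPKM of 1 was reached only in mice after ligation, so that the rule itself favoured a rise in them.

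Potassium channels let potassium leave the cell and so set the resting potential of a cardiomyocyte and end its action potential. In the mouse ventricle the early, rapid phase of repolarisation is carried by transient outward channels of the Kcnd family with the auxiliary subunit Kcnip2, later phases by Kcna5 and other delayed rectifiers, and the resting potential by the inward rectifiers Kcnj2 and Kcnj12. Other inward rectifiers answer to acetylcholine (Kcnj3 with Kcnj5) or to a fall in ATP (Kcnj11 and Kcnj8). Leukocytes, fibroblasts and smooth muscle cells carry potassium channels of their own, among them the calcium-activated channel Kcnn4 of immune cells and Kcnmb1, an auxiliary subunit of smooth muscle.

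The FPKM of all genes summed to between 542418 and 600467 per mouse. The table holds no counts, so the depth is not known directly, and a depth relative to the first control mouse, read from the steps between the lowest FPKM, ran from 0.814 to 1.32. The control mice had the 12 cardiomyocyte markers at a summed 66800 to 70939 FPKM, as the tissue label implies, with none of the 12 at 0. Taken as the geometric mean of these 12 genes, the cardiomyocyte marker level was 82.5 to 94.5% of the control mean at 6 h, 55.1 to 75.1% at 24 h and 31.7 to 42.0% at 72 h. The 8 leukocyte markers summed to 194 to 219 FPKM in control mice, 161 to 359 at 6 h, 522 to 888 at 24 h and 3503 to 4610 at 72 h, and the 8 fibroblast markers went from 267 to 298 FPKM in control mice to 3193 to 4283 at 72 h. In bulk tissue, fewer cells of a type and less RNA per cell cannot be told apart. The first 6 h mouse held RNA of atrial genes, with 63.0 FPKM of Myl4, 18.7 of Myl7 and 12.5 of Sln against at most 2.89, 0.490 and 0.132 in the other 17 mice. Of the 5 atrial markers 4 were above all other mice in it, Bmp10 with 2.48 FPKM among them, while Stard10 with 19.7 was not, so the 6 h calls were also made without it. The third 24 h mouse had the lowest cardiomyocyte marker level of its group, 55.1%.

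Few potassium channel genes differed from control within the first hour, 14 fell by 6 h, and at 72 h all but 3 of the 37 were either lower or higher than in control mice. Differences were tested on log2(FPKM + 1) with limma, and a gene was called at a Benjamini-Hochberg adjusted p under 0.05 over all genes tested. At 10 min limma called 0 of the 37, against 0.248% of all tested genes called higher and 0.0978% called lower, while 10 of the 37 and 1955 of 13297 genes had an unadjusted p under 0.05. For the 1 h mice it called 1 gene higher, Kcne4, and 0 lower, against 0.669% and 0.0526% of all genes (0.722% in all), with 6 of the 37 and 1673 of 13300 genes at an unadjusted p under 0.05. At 6 h, 2 were higher and 14 lower, which is 5.41% and 37.8% of the 37, against 11.6% and 16.8% of all genes (28.3% in all). At 24 h, 5 were higher and 16 lower, 13.5% and 43.2%, against 26.2% and 11.4% of all genes (37.6% in all). At 72 h, 12 were higher and 22 lower, 32.4% and 59.5%, against 53.1% and 24.2% of all genes (77.3% in all). The 12 include every gene named above as reaching 1 FPKM only after ligation, in which the rule favoured a rise. From 10 min to 72 h the median log2 fold change of the 37 took the values 0.02, 0.04, -0.20, -0.34 and -0.65, beside 0.02, -0.02, -0.08, 0.13 and 0.29 over all tested genes. With quantile normalization the split at 72 h was 7 higher and 24 lower, and with median-of-ratios scaling 10 and 23, while of all genes 32.1% were higher and 43.5% lower with the former and 42.5% and 32.7% with the latter, and their median moved to -0.12 and 0.10. These comparisons share the 3 control mice and are not independent of each other.

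**Figure D1:**
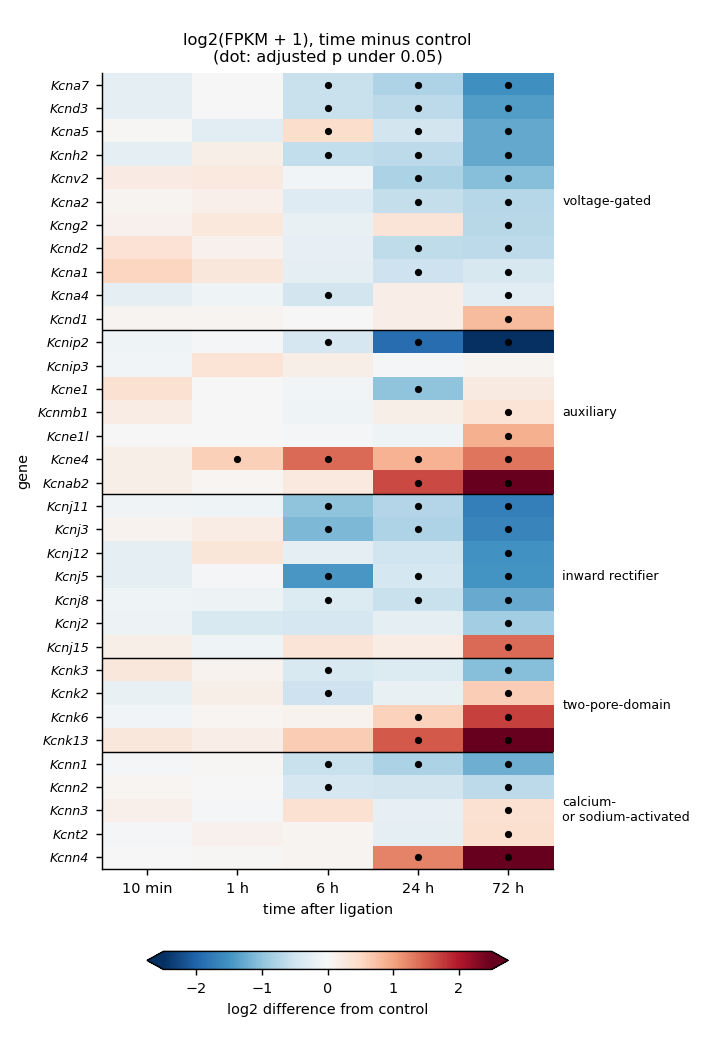
Log2 fold change against control, on the log2(FPKM + 1) scale, of 34 potassium channel genes (rows, by family) at each time after ligation (columns). Blue is lower and red higher than control, colours end at 2.5 either way, and a black dot marks an adjusted p under 0.05. From 10 min to 72 h the columns hold 0, 1, 15, 20 and 32 dots.

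How far the calls rest on single mice differed between times. At 72 h, 21 of the 22 lower and 10 of the 12 higher calls held whichever mouse of the comparison was left out, the others being Kcna4, Kcnmb1 and Kcnn3. At 6 h, Kcnd3, Kcnj11, Kcnj3, Kcnj5, Kcnk3 and Kcnn1 of the 14 lower genes and Kcne4 of the 2 higher ones held throughout, and without control mouse 1, 2 or 3 the number of lower genes was 6, 9 and 6. The share of all genes called lower dropped alike, to 6.59%, 7.63% and 6.40%. Without the first 6 h mouse 12 of the 14 were still lower, with log2 fold changes from -1.39 for Kcnj5 to -0.33 for Kcnk3 and adjusted p up to 0.0438 (Kcnn2), and the calls of Kcnip2, Kcnj8 and Kcna5 were lost. At 24 h, Kcnip2 and Kcnj8 of the lower and Kcnab2, Kcnk13 and Kcnn4 of the higher genes held throughout, and without control mouse 1, 2 or 3 only 3, 4 and 2 were lower and 3 were higher each time, while 2.75%, 2.99% and 3.51% of all genes were lower.

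The promoters of 4 genes are shown as examples of genes whose courses differed: Kcnip2 (lower at 6 h, 24 h and 72 h), Kcnj5 (with its lowest means at 6 h and 72 h), Kcnk13 and Kcnn4 (higher at 24 h and 72 h). Each is the 250 bases before the RefSeq start of the gene on GRCm38.p6, 5′ to 3′ on the gene's strand, at chr19:45816064-45816313 (minus strand), chr9:32344345-32344594 (minus), chr12:99964249-99964498 (plus) and chr7:24370013-24370262 (plus). Capitals mark the GC box GGGCGG, known as a site of Sp factors, and the E-box CACGTG, on either strand.
Kcnip2: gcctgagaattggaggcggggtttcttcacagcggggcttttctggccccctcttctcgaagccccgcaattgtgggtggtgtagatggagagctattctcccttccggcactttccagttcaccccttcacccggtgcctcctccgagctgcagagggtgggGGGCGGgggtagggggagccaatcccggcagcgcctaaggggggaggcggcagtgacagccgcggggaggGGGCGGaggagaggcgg
Kcnj5: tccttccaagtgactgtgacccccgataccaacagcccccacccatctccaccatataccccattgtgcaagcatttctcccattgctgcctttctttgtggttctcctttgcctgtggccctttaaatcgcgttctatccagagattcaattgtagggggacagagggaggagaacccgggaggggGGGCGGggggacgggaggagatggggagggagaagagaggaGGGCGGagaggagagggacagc
Kcnk13: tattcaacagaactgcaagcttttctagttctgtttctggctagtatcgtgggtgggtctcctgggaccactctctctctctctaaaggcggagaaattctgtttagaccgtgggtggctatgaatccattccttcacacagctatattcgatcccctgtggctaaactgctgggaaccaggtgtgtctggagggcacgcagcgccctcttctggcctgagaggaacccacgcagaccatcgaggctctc
Kcnn4: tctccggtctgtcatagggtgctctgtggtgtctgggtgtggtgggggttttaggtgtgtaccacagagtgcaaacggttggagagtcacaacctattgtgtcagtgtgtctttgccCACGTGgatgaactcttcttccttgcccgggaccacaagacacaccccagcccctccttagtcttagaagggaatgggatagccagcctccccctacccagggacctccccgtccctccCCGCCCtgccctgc
The windows searched ran to 50 bases past the start, and 25 of the 37 genes had at least 1, with 33 windows in all. The GC box was found in 35.7% of all 32851 windows, in 9 of the 15 windows of genes lower at 72 h and in 4 of the 15 of genes higher at 72 h. The E-box was in 7.15% of all windows and in 1 and 2 of these, the TATA box TATAAA in 13.6% and in 0 and 1, the AP-1 site TGANTCA in 7.81% and in 0 and 1, and the PU.1 site GAGGAAGT in 3.2% and in 0 and 0. Some genes had more than 1 window. Counted by gene, the GC box was in 9 of the 14 lower and 4 of the 10 higher genes with a window. A match is a run of letters and no evidence that a factor binds.

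Among the subunits of the transient outward current, Kcnip2 showed the largest fall of the 37 genes at 24 h and at 72 h on the log2(FPKM + 1) scale. Kcnip2, the calcium-binding subunit that brings Kcnd channels to the membrane and slows their inactivation, lies on chromosome 19 from 45791839 to 45816061 of mm10 (minus strand). It had 68.3, 67.2 and 71.3 FPKM in control mice. Kcnip2 stood at 50.4, 61.5 and 43.9 in the 6 h mice, 26.0, 19.0 and 11 in the 24 h mice and 13.9, 8.39 and 11.6 in the 72 h mice. Every mouse from 6 h on lay below every control mouse, while the 10 min and 1 h mice, at 56.5 to 74.4 FPKM, overlapped with control. Its log2 fold change was -0.41 at 6 h (SE 0.12, adjusted p = 0.0395 in limma, and -0.40 with adjusted p = 0.0827 without the first 6 h mouse), -1.91 at 24 h (SE 0.27, adjusted p = 0.00515) and -2.53 at 72 h (SE 0.15, adjusted p = 9.5e-07). The mean at 72 h was 16.4% of control. Of the pore-forming partners, Kcnd3 had 16.4, 13.6 and 16.0 FPKM in control mice. Kcnd3 stood at 10.0, 9.73 and 10.6 in the 6 h mice, 13.3, 7.44 and 8.23 in the 24 h mice and 5.22, 5.43 and 4.91 in the 72 h mice. It was below all control mice at all 3 times, with log2 fold changes of -0.55, -0.65 and -1.40 (adjusted p = 0.00762, 0.0417 and 1.39e-06 in limma). Kcnd2 was much scarcer, with 1.55, 2.19 and 2.01 FPKM in control mice. Kcnd2 stood at 1.31, 1.27 and 2.07 in the 6 h mice, 0.895, 1.14 and 0.608 in the 24 h mice and 1.25, 0.784 and 0.587 in the 72 h mice. Its 6 h mice overlapped with control, and it was lower at 24 h and 72 h on the log2 scale (-0.64 and -0.65, adjusted p = 0.0174 and 0.00322 in limma). Kcna4, the pore of the slow transient outward current, took another course, with 1.15, 1.19 and 1.14 FPKM in control mice. Kcna4 stood at 0.891, 0.519 and 0.345 in the 6 h mice, 1.55, 1.20 and 1.54 in the 24 h mice and 0.848, 0.884 and 0.580 in the 72 h mice. It was lower at 6 h (log2 fold change -0.46, adjusted p = 0.0368 in limma, and -0.59 with adjusted p = 0.0069 without the first 6 h mouse), above control in all 3 mice without passing the test at 24 h (0.17, adjusted p = 0.227), and lower at 72 h (-0.29, adjusted p = 0.0225). Of the 6 fits with 1 mouse left out, only that without the first 6 h mouse kept the 6 h call (adjusted p up to 0.104). The 72 h call of Kcna4 held in 2 of 6 such fits.

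**Figure D2:**
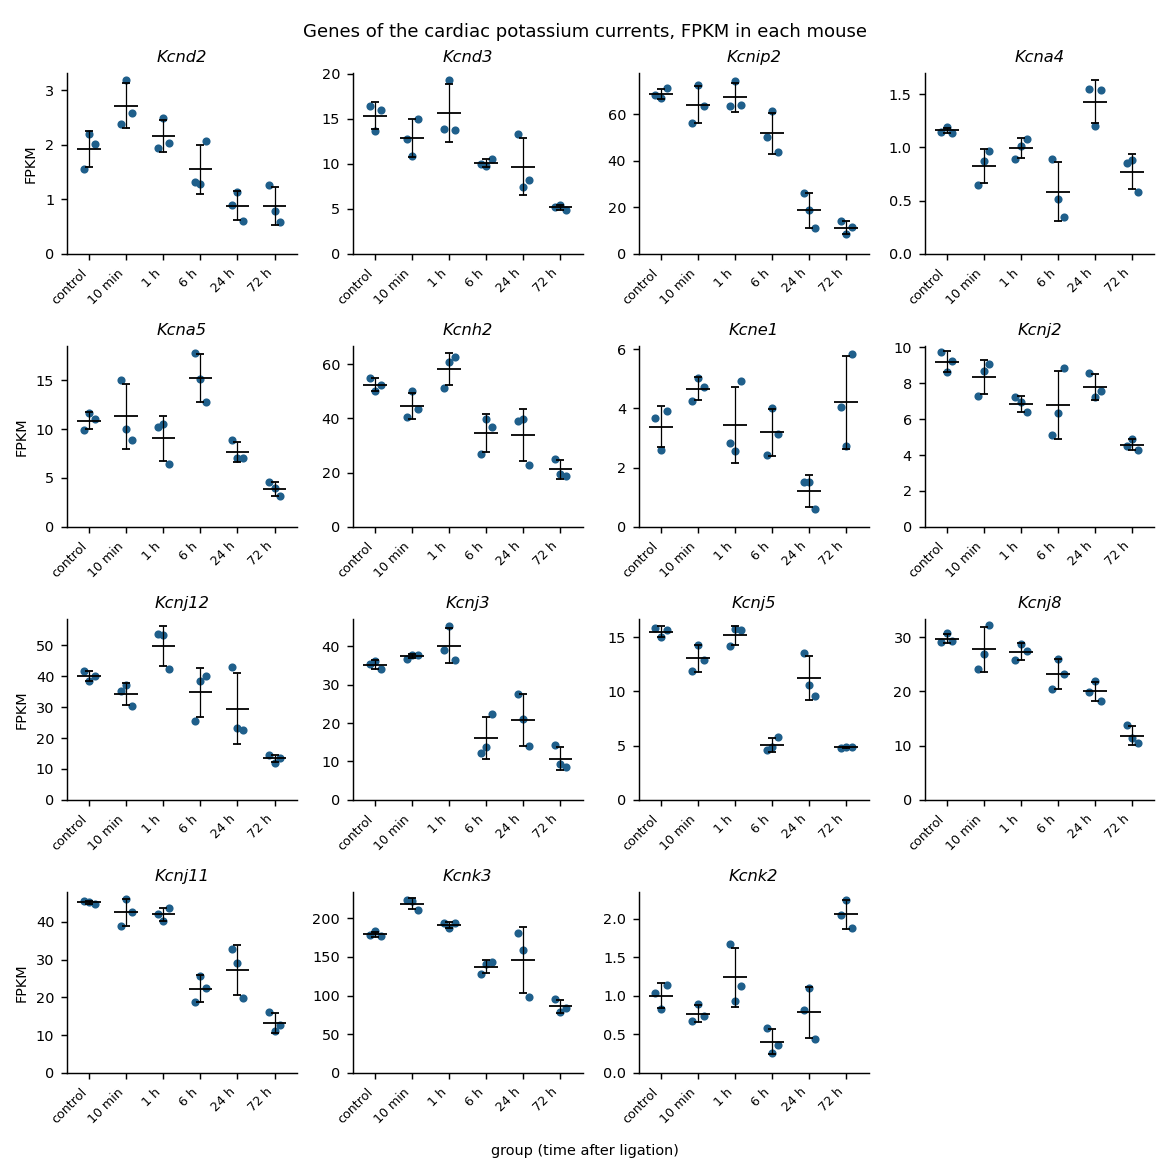
FPKM of 15 genes of the cardiac potassium currents in each mouse (points), with the mean (line) and SD (bars) of the 3 mice of a group, for the control group and 5 times after ligation. Each panel has its own axis from 0. Kcnip2 falls to 11.3 FPKM on average at 72 h, Kcnj5 dips to 5.08 at 6 h, stands at 11.2 at 24 h and falls to 4.86 at 72 h, and Kcna5 peaks at 15.2 at 6 h.

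The pore genes of the delayed rectifiers fell by 72 h, and Kcna5 among them was higher at 6 h. Kcna5, the pore of the ultra-rapid delayed rectifier, had 9.94, 11.6 and 11 FPKM in control mice. Kcna5 stood at 17.7, 15.1 and 12.8 in the 6 h mice, 8.87, 7.03 and 7.04 in the 24 h mice and 4.57, 3.93 and 3.17 in the 72 h mice. All 6 h mice lay above and all 24 h and 72 h mice below the control mice. The log2 fold changes were 0.44 at 6 h (adjusted p = 0.0388 in limma), -0.46 at 24 h (adjusted p = 0.0241) and -1.29 at 72 h (adjusted p = 1.19e-05), and the step from 6 h to 24 h was itself called (-0.90, SE 0.16, adjusted p = 0.0204). The first 6 h mouse had the highest Kcna5, and without it the rise was 0.33 (adjusted p = 0.0748) and the step to 24 h -0.79 (adjusted p = 0.0608). Of the 6 fits with 1 mouse left out, the 6 h rise was called in 1 (adjusted p up to 0.136) and the step to 24 h in 2. Kcnh2, the pore of the rapid delayed rectifier, had 55.0, 50.2 and 52.1 FPKM in control mice. Kcnh2 stood at 26.7, 39.9 and 37.0 in the 6 h mice, 38.8, 39.8 and 22.8 in the 24 h mice and 25.1, 19.6 and 18.7 in the 72 h mice. All 9 of these mice lay below control, with log2 fold changes of -0.61, -0.66 and -1.28 (adjusted p = 0.0214, 0.0429 and 7.71e-06 in limma). Kcne1, the auxiliary subunit of the Kcnq1 channel, was the only auxiliary subunit other than Kcnip2 to be called lower, and at 24 h alone. It had 3.66, 2.59 and 3.90 FPKM in control mice. Kcne1 stood at 2.42, 4.01 and 3.15 in the 6 h mice, 1.51, 1.52 and 0.602 in the 24 h mice and 4.06, 2.73 and 5.84 in the 72 h mice. The 24 h mice lay below all mice of the other 5 groups (log2 fold change against control -1.01, SE 0.21, adjusted p = 0.0139 in limma), and the step from 24 h to 72 h was 1.22 (SE 0.26, adjusted p = 0.00839). Kcna7, a voltage-gated channel of heart and skeletal muscle, had 6.09, 5.48 and 6.50 FPKM in control mice. Kcna7 stood at 3.26, 3.76 and 4.31 in the 6 h mice, 4.24, 2.39 and 2.88 in the 24 h mice and 1.64, 1.24 and 1.38 in the 72 h mice. Its log2 fold change was -1.54 at 72 h (SE 0.10, adjusted p = 1.44e-06 in limma), the largest fall among the 14 voltage-gated genes at that time.

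The remaining voltage-gated genes were mostly scarce. Kcnv2 and Kcng2, silent subunits that form channels only together with other voltage-gated subunits, parted at 24 h. Kcnv2 was close to constant in control mice, at 1.40 ± 0.00847 FPKM (SD, n = 3). The 24 h mice had 0.810, 0.258 and 0.163 FPKM of it and the 72 h mice 0.286, 0.110 and 0.0620 (log2 fold changes -0.80 and -1.07, adjusted p = 0.0146 and 1.45e-05 in limma). Its 72 h mean was 10.9% of control on the FPKM scale, the lowest share of the 37 genes. Kcng2 had 40.8 ± 3.52 FPKM in control mice, 51.4 ± 7.58 in the 24 h mice without passing the test (adjusted p = 0.0812 in limma) and 24.9 ± 2.40 in the 72 h mice (log2 fold change -0.69, adjusted p = 0.000143). Kcna1 and Kcna2 were lower at 24 h and 72 h, from 1.80 and 2.0 FPKM in control mice to 1.14 and 0.822 at 72 h. Kcnd1 was the only voltage-gated gene called higher at 72 h, from 0.0911 ± 0.0509 to 0.886 ± 0.191 FPKM (log2 fold change 0.79, adjusted p = 0.000124). It met the FPKM limit in the third 72 h mouse alone, at 1.10 FPKM, so the rule favoured its rise.

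Of the 7 inward rectifiers, 6 were lower and 1 higher at 72 h, and the pair opened by acetylcholine and the pore of the ATP-sensitive channel had the largest falls of all 37 genes at 6 h on the log2(FPKM + 1) scale. Kcnj5, on chromosome 9 from 32314707 to 32344350 of mm10 (minus strand), had 15.9, 15 and 15.7 FPKM in control mice. Kcnj5 stood at 11.9, 14.3 and 12.9 in the 10 min mice, 14.2, 15.8 and 15.6 in the 1 h mice, 4.6, 4.84 and 5.79 in the 6 h mice, 13.5, 10.6 and 9.55 in the 24 h mice and 4.80, 4.89 and 4.89 in the 72 h mice. It was low at 6 h, closer to control at 24 h and low again at 72 h, and the 24 h mice overlapped with neither of the other groups. The log2 fold changes against control were -1.45 (SE 0.10, adjusted p = 0.000362 in limma), -0.45 (SE 0.13, adjusted p = 0.0334) and -1.5 (SE 0.07, adjusted p = 1.89e-07). The step from 6 h to 24 h was 1.00 (SE 0.16, adjusted p = 0.0171) and that from 24 h to 72 h was -1.05 (SE 0.13, adjusted p = 0.00095). Without the first 6 h mouse the fall at 6 h was -1.39 (adjusted p = 0.000464), and the step from 6 h to 24 h was 0.94 (adjusted p = 0.0554), a step that was called in 2 of the 6 fits with 1 mouse left out. Its partner Kcnj3 had 35.5, 36.3 and 34.0 FPKM in control mice. Kcnj3 stood at 12.2, 13.8 and 22.5 in the 6 h mice, 27.5, 21.1 and 14.0 in the 24 h mice and 14.3, 9.38 and 8.61 in the 72 h mice. It was lower at all 3 times (log2 fold changes -1.12, -0.78 and -1.65, adjusted p = 0.00784, 0.0299 and 1.66e-05 in limma), and its step from 6 h to 24 h did not pass the test (0.35, SE 0.29, adjusted p = 0.404). Kcnj3 is uncertain to the extent that 31.1% of its exon bases overlap a gene on the other strand, Gm26794, and that no source used here says whether strand was used in the estimate.

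The ATP-sensitive channel of the ventricle joins pore subunits, mostly Kcnj11, to sulfonylurea receptors. Kcnj11 had 45.4, 45.1 and 44.8 FPKM in control mice. Kcnj11 stood at 18.7, 25.7 and 22.5 in the 6 h mice, 32.9, 29.1 and 19.9 in the 24 h mice and 16.2, 11 and 12.5 in the 72 h mice. All 9 of these mice lay below control, and the log2 fold changes were -1.0 (SE 0.11, adjusted p = 0.0018 in limma), -0.74 (SE 0.17, adjusted p = 0.0188) and -1.71 (SE 0.12, adjusted p = 2.51e-06). Without the first 6 h mouse the fall at 6 h was -0.88 (adjusted p = 0.00116). Kcnj8, the pore found in vascular muscle and pericytes, had 29.1, 30.7 and 29.3 FPKM in control mice. Kcnj8 stood at 20.5, 26.0 and 23.3 in the 6 h mice, 19.8, 21.9 and 18.3 in the 24 h mice and 13.7, 11.4 and 10.4 in the 72 h mice. Every one of these 9 mice lay below control. Its log2 fold changes were -0.35, -0.55 and -1.27 (adjusted p = 0.0365, 0.00706 and 4.32e-06 in limma, and 0.0631 at 6 h without the first mouse). The receptor genes Abcc9 and Abcc8 were lower at 6 h too (log2 fold changes -0.55 and -0.45, adjusted p = 0.00793 and 0.0108), and at 72 h Abcc9 stood at 44.9 ± 4.51 against 162 ± 4.38 FPKM and Abcc8 at 13.4 ± 1.67 against 39.1 ± 2.60 FPKM (log2 fold changes -1.83 and -1.48, adjusted p = 2.1e-07 and 1.73e-06).

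Both genes of the resting potential were called at 72 h alone. Kcnj12 had 41.8, 38.6 and 40.1 FPKM in control mice. Kcnj12 stood at 25.5, 38.5 and 40.2 in the 6 h mice, 42.9, 23.2 and 22.5 in the 24 h mice and 14.5, 12.1 and 13.5 in the 72 h mice. At 6 h and at 24 h at least 1 mouse lay within or above the control range and neither time passed the test (adjusted p = 0.315 and 0.132 in limma), and at 72 h the log2 fold change was -1.52 (SE 0.08, adjusted p = 4.83e-07). Kcnj2 had 9.76, 8.60 and 9.26 FPKM in control mice. Kcnj2 stood at 7.24, 6.97 and 6.37 in the 1 h mice, 5.13, 6.37 and 8.86 in the 6 h mice, 8.58, 7.22 and 7.55 in the 24 h mice and 4.52, 4.90 and 4.31 in the 72 h mice. Its 1 h mice all lay below control (log2 fold change -0.38, adjusted p = 0.116), and it was called at 72 h alone (-0.87, SE 0.08, adjusted p = 1.41e-05).

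Among the two-pore-domain channels, which leak potassium at rest, Kcnk3 fell and Kcnk2 changed direction. Kcnk3, an acid-sensitive background channel, was the most abundant of the 37 genes in every group and made up 29.4% of their summed FPKM in control mice. It had 178, 183 and 176 FPKM in control mice. Kcnk3 stood at 224, 223 and 211 in the 10 min mice, 193, 187 and 193 in the 1 h mice, 128, 141 and 143 in the 6 h mice, 180, 159 and 98.5 in the 24 h mice and 95.0, 79.3 and 83.7 in the 72 h mice. The 10 min mice lay above all control mice without passing the test (log2 fold change 0.29, SE 0.05, adjusted p = 0.0636 in limma). At 6 h it was lower (-0.38, SE 0.07, adjusted p = 0.00889), at 24 h it was not called (-0.34, SE 0.21, adjusted p = 0.229), and at 72 h it was lower, at 48.0% of the control mean (log2 fold change -1.06, SE 0.08, adjusted p = 3.75e-06). Kcnk2, a stretch-activated channel, had 1.04, 0.826 and 1.14 FPKM in control mice. Kcnk2 stood at 0.583, 0.261 and 0.366 in the 6 h mice, 0.817, 1.09 and 0.439 in the 24 h mice and 2.04, 2.24 and 1.88 in the 72 h mice. It was below all control mice at 6 h and above all of them at 72 h, with log2 fold changes of -0.51 (SE 0.11, adjusted p = 0.0167 in limma, with a 6 h mean at 40.4% of control on the FPKM scale) and 0.61 (SE 0.10, adjusted p = 0.00039), and the step from 24 h to 72 h was 0.79 (SE 0.16, adjusted p = 0.00578). For this gene 12.2% of exon bases overlap a gene on the other strand. Exons of 12 of the 37 genes overlap another gene, Kcnj3 and Kcnk2 among them. The share of exon bases was 9.1% for Kcng2, 8.1% for Kcnn2, 5.8% for Kcnk3 and 5.3% for Kcnj15. It was smaller for Kcnab2, Kcnd3, Kcnn1 and Kcnt2.

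Of the calcium-activated channels of small conductance, Kcnn1 fell from 11.4 ± 0.498 FPKM in control mice to 7.47 ± 0.382 in the 6 h mice, 6.30 ± 1.95 in the 24 h mice and 4.35 ± 1.01 in the 72 h mice (log2 fold changes -0.55, -0.80 and -1.23, adjusted p = 0.00509, 0.0195 and 2.68e-05 in limma). Kcnn2 was called lower at 6 h and 72 h, at 0.711 and 0.451 against 1.29 FPKM. Its 24 h mice, with a mean of 0.672 FPKM, also all lay below control without passing the test (log2 fold change -0.47, adjusted p = 0.054 in limma). Kcnn3 and the sodium-activated Kcnt2 were higher at 72 h (log2 fold changes 0.38 and 0.39, adjusted p = 0.0433 and 0.00444), after means of 0.396 and 0.506 FPKM at 24 h against 0.594 and 0.791 in control mice. The call of Kcnn3 held in 1 of the 6 fits with 1 mouse left out. With quantile normalization the 72 h differences of both Kcnn3 and Kcnt2 changed sign, so their direction depends on the scaling.

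The 12 genes higher at 72 h were led by Kcnk13, Kcnab2 and Kcnn4, which were near or below 1 FPKM in control mice and had risen by 24 h. Among the 12, Kcnab2, Kcnd1, Kcne1l, Kcnj15, Kcnn3, Kcnn4 and Kcnt2 reached 1 FPKM only in mice after ligation. The rule that chose the genes therefore favoured a rise in these. Kcnk13, a background channel known from microglia and macrophages, had 0.664, 0.890 and 1.08 FPKM in control mice. Kcnk13 stood at 2.44, 0.912 and 2.75 in the 6 h mice, 2.95, 4.59 and 6.26 in the 24 h mice and 18.0, 20.0 and 20.2 in the 72 h mice. The 6 h mice overlapped with control, and the 24 h and 72 h mice lay above it, with log2 fold changes of 1.54 (SE 0.22, adjusted p = 0.00548 in limma) and 3.44 (SE 0.10, adjusted p = 2.75e-08). Kcnab2, the beta subunit that binds Kcna channels in nerve and lymphocytes, had 0.890, 0.76 and 0.913 FPKM in control mice. Kcnab2 stood at 1.03, 0.920 and 1.75 in the 6 h mice, 3.68, 5.14 and 5.74 in the 24 h mice and 14.3, 16.0 and 15.1 in the 72 h mice. Its log2 fold changes were 1.64 at 24 h (SE 0.15, adjusted p = 0.0018 in limma) and 3.12 at 72 h (SE 0.08, adjusted p = 1.81e-08). Kcnn4 had 0.101, 0.350 and 0.205 FPKM in control mice. Kcnn4 stood at 0.403, 0.160 and 0.271 in the 6 h mice, 1.16, 2.06 and 2.61 in the 24 h mice and 7.39, 11 and 9.5 in the 72 h mice. Mean Kcnn4 was 42.5 times that of control at 72 h on the FPKM scale, the largest ratio of the 37 genes (log2 fold change 3.07, SE 0.14, adjusted p = 2.38e-07 in limma).

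**Figure D3:**
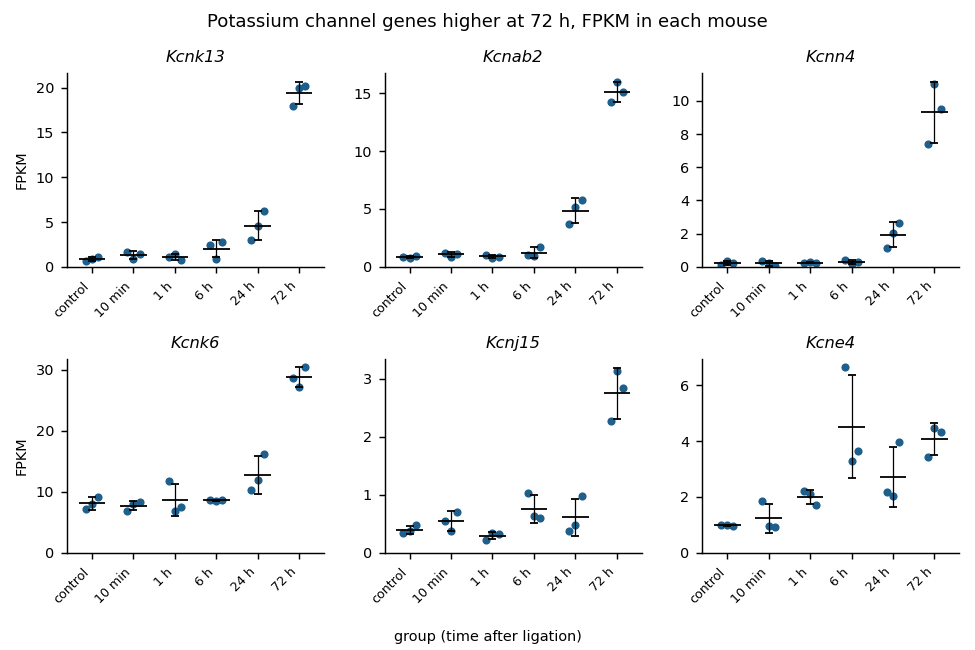
FPKM of 6 potassium channel genes in each mouse (points), with the mean (line) and SD (bars) of the 3 mice of a group. Kcnk13, Kcnab2 and Kcnn4 rise at 24 h and further at 72 h, Kcnk6 and Kcnj15 mostly at 72 h, and Kcne4 is already above control at 1 h, with its highest mouse, 6.63 FPKM, at 6 h.

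Kcne4, an auxiliary subunit that inhibits several Kcna and Kcnq channels, was the earliest to be called and the only 1 of the 37 called at 1 h. It had 1.01, 0.978 and 0.972 FPKM in control mice. Kcne4 stood at 1.84, 0.948 and 0.939 in the 10 min mice, 2.20, 2.11 and 1.72 in the 1 h mice, 6.63, 3.28 and 3.64 in the 6 h mice, 2.17, 2.04 and 3.96 in the 24 h mice and 3.42, 4.45 and 4.33 in the 72 h mice. From 1 h on every mouse lay above every control mouse. The log2 fold change was 0.60 at 1 h (SE 0.08, adjusted p = 0.0238 in limma), a call that was lost when any mouse but the third 1 h mouse was left out (adjusted p up to 0.114). It was 1.42 at 6 h (SE 0.21, adjusted p = 0.004, and 1.17 with adjusted p = 0.000674 without the first 6 h mouse), 0.87 at 24 h (adjusted p = 0.0158) and 1.34 at 72 h (SE 0.10, adjusted p = 3.82e-06). Kcnk6, another background channel, stayed between 6.83 and 11.7 FPKM in all mice up to 6 h. The 24 h mice had 10.2, 11.9 and 16.1 FPKM of Kcnk6 and the 72 h mice 28.7, 27.2 and 30.5 (log2 fold changes 0.58 and 1.72, adjusted p = 0.0365 and 6.26e-07 in limma). Kcnj15, an inward rectifier known from kidney and other epithelia, had 0.347, 0.373 and 0.479 FPKM in control mice. Kcnj15 stood at 2.26, 3.13 and 2.83 in the 72 h mice (log2 fold change 1.41, SE 0.11, adjusted p = 4.44e-06 in limma). Kcnip3, a relative of Kcnip2, was called at none of the 5 times (log2 fold change 0.07 at 72 h, adjusted p = 0.43). Of the other higher genes Kcne1l, an auxiliary subunit, went from 0.253 to 1.34 FPKM, and Kcnmb1 from 0.942 to 1.48. The difference of Kcnmb1 changed sign with quantile normalization. The 8 leukocyte markers, all above 0 in every group, were called higher at 24 h and at 72 h in 8 of 8 genes, and the 8 fibroblast markers at 72 h in 8 of 8. The smooth muscle and pericyte markers summed to 367 to 437 FPKM in control mice and 704 to 948 at 72 h. Of these 8 markers 4 were called higher and 2 lower at 72 h, against 53.1% and 24.2% of all genes. Their median log2 fold change was 0.21, beside 0.29 over all tested genes. The part of these cell types in the rises was not tested.

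For the genes that fell, the same differences were computed after each mouse's FPKM had been divided by its cardiomyocyte marker level, an alternative chosen after seeing the data. On this scale the median log2 fold change of all tested genes at 72 h moves from 0.29 to 1.57, so only a fall steeper than that of the markers remains lower. Of the 14 genes lower at 6 h, 8 remained lower per marker level (Kcna7, Kcnd3, Kcnh2, Kcnj11, Kcnj3, Kcnj5, Kcnk2 and Kcnn1), of the 16 at 24 h 3 (Kcne1, Kcnip2 and Kcnv2), and of the 22 at 72 h 3 (Kcna7, Kcnip2 and Kcnv2). At 6 h Kcna7, Kcnd3, Kcnh2 and Kcnk2 were close to the limit (adjusted p = 0.048, 0.0485, 0.0436 and 0.0464 in limma). No mouse was left out in turn on this scale. Over all tested genes, 6.19%, 1.82% and 1.20% were lower per marker level at 6 h, 24 h and 72 h, beside 8, 3 and 3 of the 37. These percentages are of all genes and not of the genes called lower before the division. Kcnj5 had a log2 fold change of -1.25 at 6 h (adjusted p = 0.001 in limma), 0.09 at 24 h and -0.16 at 72 h (adjusted p = 0.547 and 0.365) per marker level. Kcnip2 had -0.23 at 6 h (adjusted p = 0.173), -1.34 at 24 h (adjusted p = 0.00532) and -1.10 at 72 h (adjusted p = 1.57e-06). Another 14 of the 22 were not called at 72 h, with values from -0.27 for Kcnj11 to 0.20 for Kcnd2, and 5 (Kcna1, Kcna4, Kcng2, Kcnj2 and Kcnk3) were higher by 0.44 to 0.77. The rise of Kcna5 at 6 h was 0.60 on this scale (adjusted p = 0.0334), and its differences at 24 h and 72 h were 0.06 and 0.01 and not called. The first 6 h mouse had the highest Kcna5 and the lowest marker level of its group, 82.5%, so the division enlarges its value most. On the FPKM as deposited the rise was not called without this mouse (adjusted p = 0.0748 in limma), and on the present scale that was not tested. All 12 genes higher at 72 h stayed higher, on a scale on which 92.1% of all genes were higher.

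**Figure D4:**
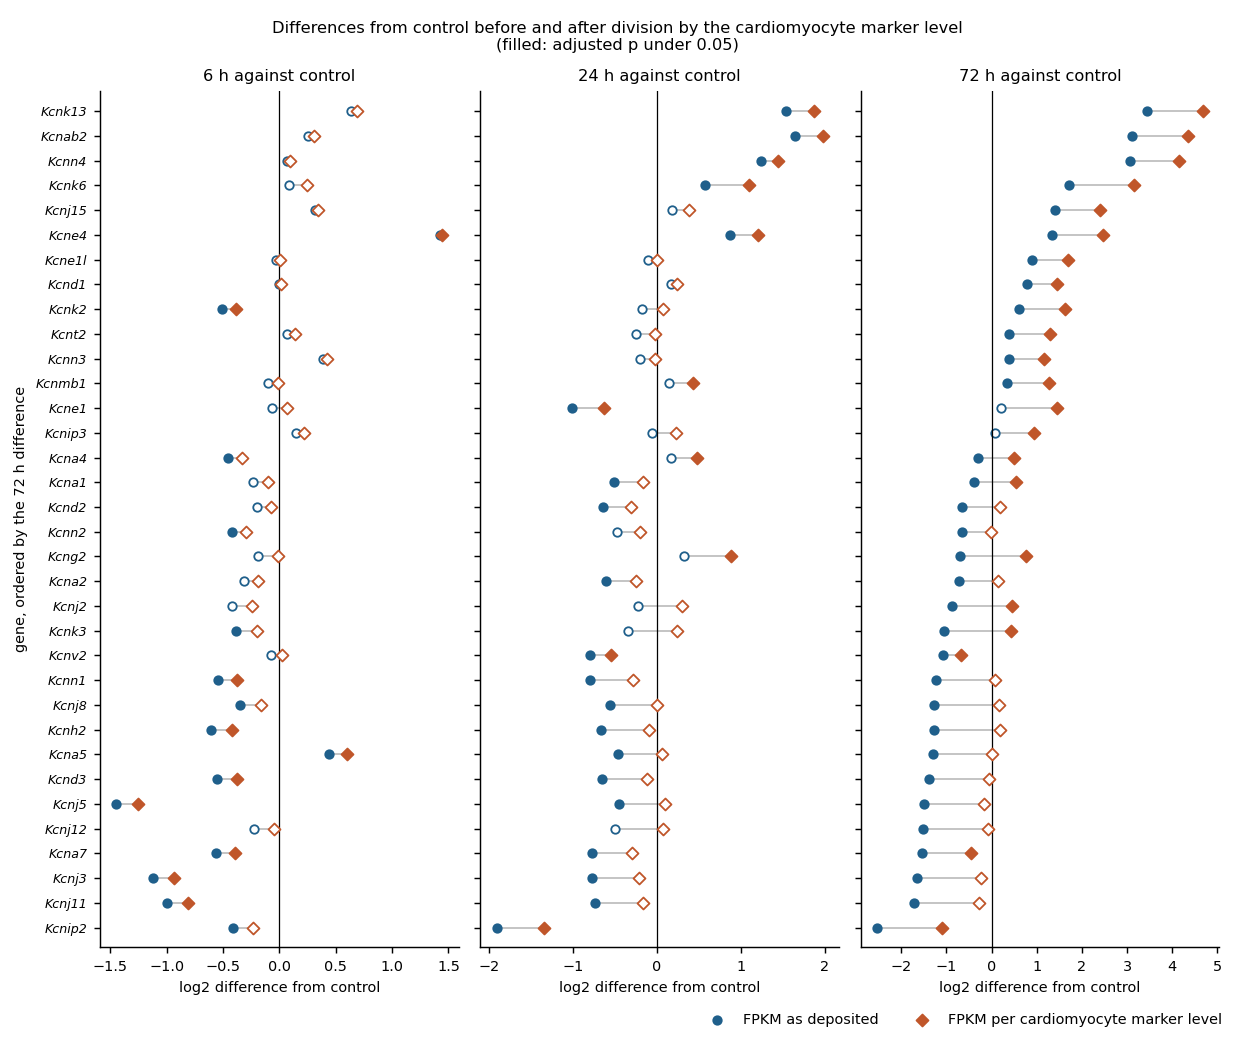
Log2 fold change against control of 34 genes at 6 h, 24 h and 72 h, from FPKM as deposited (blue circles) and after division by the cardiomyocyte marker level of each mouse (orange diamonds), with filled symbols for an adjusted p under 0.05. At 72 h most blue circles left of 0 have their diamond near 0, while Kcnip2 stays at -1.10, and at 6 h Kcnj5, Kcnj3 and Kcnj11 stay at -1.25, -0.94 and -0.81.

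Between the late times, 5 of the 37 genes were higher and 4 lower at 24 h than at 6 h (12.5% and 1.94% of all genes), and 11 were higher and 14 lower at 72 h than at 24 h (29.7% and 13.5% of all genes). None of the 9 calls between 6 h and 24 h held with every mouse left out in turn, and without the first 6 h mouse 1 higher and 0 lower genes were called, and 0 and 0 without 6 h mouse 2 or 3 or 24 h mouse 2. Between 24 h and 72 h, 10 of the 11 higher and 8 of the 14 lower calls held, and the number lower was 8 and 9 without the third and the second 72 h mouse, and 9 without the first 24 h mouse.

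Genes that work with the channels were called in both directions. Among 24 channel partners and regulators, 19 were tested, of which 1 was higher and 8 lower at 6 h, 3 higher and 3 lower at 24 h and 2 higher and 13 lower at 72 h, with medians of -0.24, -0.10 and -0.64 in log2 fold change. Of all genes, 11.6% and 16.8%, 26.2% and 11.4%, and 53.1% and 24.2% were higher and lower at these times, with medians of -0.08, 0.13 and 0.29. Irx4, a ventricular transcription factor, fell from 21.3 ± 0.107 to 10.5 ± 1.45 FPKM in the 6 h mice and 8.38 ± 1.44 in the 72 h mice (log2 fold changes -0.97 and -1.26, adjusted p = 0.00169 and 8.36e-06 in limma). Klf15, a factor known to drive Kcnip2 transcription, stood at 23.0 ± 2.77 FPKM in control mice, 20.5 at 6 h (adjusted p = 0.485) and 5.44 ± 1.12 in the 72 h mice (log2 fold change -1.91, adjusted p = 2.96e-06). Ank2, which anchors membrane proteins in cardiomyocytes, went from 92.1 ± 3.0 to 39.4 ± 1.19 FPKM in the 72 h mice (-1.21, adjusted p = 3.88e-07). Lrrc55, an auxiliary subunit of large-conductance calcium-activated channels, went from 0.452 to 0.0578 FPKM at 6 h and 0.942 at 72 h, and Flna from 26.5 to 85.6 FPKM at 72 h. Of 14 genes of potassium pumps and cotransporters, 4 were higher and 5 lower at 6 h. The corresponding numbers were 5 and 2 for the 24 h mice, then 6 and 6 for the 72 h mice, with medians of -0.03, 0.12 and -0.16, beside the same shares and medians of all genes. Of the sodium-potassium pump, the beta subunit Atp1b3 went from 30.2 ± 2.91 to 69.2 ± 6.01 FPKM in the 72 h mice (log2 fold change 1.17, adjusted p = 5.59e-06 in limma). Fxyd5, a regulator of the pump, was higher from 6 h on, with 8.63 ± 0.652 FPKM in control mice, 25.2 ± 7.78 at 6 h and 75.5 ± 2.45 at 72 h (2.99, adjusted p = 1.38e-08), and Fxyd1, the regulator of the cardiac pump, fell from 489 ± 18.1 to 231 ± 39.3 FPKM in the 72 h mice (-1.09, adjusted p = 3.25e-05). Atp1b2 was lower at 24 h and 72 h, and Fxyd6 and Slc12a9 were higher at 72 h, by ratios of mean FPKM over 2.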

How the data were processed

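Poly(A) RNA of the heart was sequenced in 18 mice, 3 in each of 6 groups taken from the sample labels. Per the labels and the submitters' processing notes, reads were handled with cutadapt 1.18, HISAT2 2.1.0 and StringTie 1.3.4d on mm10, and Cuffdiff is also named, with no role given. The study used Cufflinks for its comparisons with control, which were not used here. The authors deposited 1 table of FPKM per gene symbol and mouse. The annotation behind it and the use of strand are not given in the sources used here. Since FPKM corrects for length and total only, a change in cell makeup moves every gene. The summed FPKM ranged from 542418 to 600467 per mouse.

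From the deposited FPKM, 13333 genes with at least 1 FPKM in at least 1 mouse were kept, and log2(FPKM + 1) was compared with limma 3.58.1 (R 4.3.3), using eBayes with a trend, 2-sided, each time against the 3 control mice and 24 h against 6 h and 72 h against 24 h, each from its own 6 mice. Genes with no variation in a comparison dropped out. Fold changes are on that scale and understate changes of scarce genes. P-values were adjusted by Benjamini-Hochberg over all genes tested, and 0.05 was the limit. On simulated data with the spread of the control mice, 100 of 100 genes changed 1.5-fold, 100 of 100 changed 2-fold and 10 of 13133 unchanged genes were called. The changes were put in on the log2(FPKM + 1) scale and only in genes above about 2 FPKM. The simulation does not tell how often changes in scarcer genes, or in groups with a wider spread than control, would be called.

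Values in each mouse were given for genes of the main cardiac currents and for those called with a ratio of means over 2, up to the 15 with the largest log2 fold change, and the other genes by family. Genes of the partner and pump lists were named where called with a ratio over 2. Counts cover all 37 members, and values of some genes are not reported here. The members and lists were chosen with earlier results of these data known. Gene positions came from GENCODE M21 and promoters from RefSeq, 250 bases before to 50 after each start. Python 3.11.15, numpy 2.4.6, pandas 2.3.3 and matplotlib 3.10.9 were used. Alternatives changed the pseudocount, filter, scaling, fit, variance model and call rule, added a replicate block, and left out each mouse in turn.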

Additional observations from a re-analysis of the deposited data

Results flagged for a closer look

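Several potassium channel genes stood out because their level differed between neighbouring times after ligation, tested directly between the mice of the 2 times with limma and a Benjamini-Hochberg adjusted p under 0.05. From 6 h to 24 h, the log2 fold change of the genes that rose was 0.63 for Kcna4, 1.39 for Kcnab2, 0.51 for Kcng2, 1.00 for Kcnj5 and 1.18 for Kcnn4. Over the same step the genes that fell had -0.90 for Kcna5, -0.94 for Kcne1, -1.49 for Kcnip2 and -0.72 for Kcnv2. These 9 calls each rested on mice whose removal ended them.

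From 24 h to 72 h, the log2 fold change of the genes that rose was 1.48 for Kcnab2, 0.62 for Kcnd1, 1.22 for Kcne1, 1.00 for Kcne1l, 1.23 for Kcnj15, 1.91 for Kcnk13, 0.79 for Kcnk2, 1.14 for Kcnk6, 0.58 for Kcnn3, 1.82 for Kcnn4 and 0.64 for Kcnt2. Genes that fell over this step had -0.46 for Kcna4, -0.83 for Kcna5, -0.76 for Kcna7, -0.75 for Kcnd3, -1.01 for Kcng2, -0.98 for Kcnj11, -1.03 for Kcnj12, -0.65 for Kcnj2, -0.88 for Kcnj3, -1.05 for Kcnj5, -0.72 for Kcnj8 and -0.71 for Kcnk3. None of the falls over this step was called when FPKM was divided by the cardiomyocyte marker level, while all 11 rises were, on a scale on which 76.3% of all genes were higher and 0.653% lower over this step.

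A pair of genes was called in opposite directions at different times. Kcna5 was higher than control at 6 h, with a log2 fold change of 0.44, and lower at 24 h and 72 h, and the step from 6 h to 24 h is among those above. Kcnk2 was lower at 6 h and higher at 72 h, by 0.61 in log2 fold change, and the difference between 6 h and 72 h itself was not tested. With 3 mice in a group, single mice far from the others of their group in a channel gene were not looked for. The first 6 h mouse and the third 24 h mouse were singled out on marker genes alone.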

How the results depend on the processing

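Of the recomputed counts of higher or lower potassium channel genes, those without single mice aside, 131 stayed within 1.5 times the reported count and 37 did not, and the cause of a moved count was not tested beyond what each setting does by construction. With all 18 mice in a single fit, 0 genes were higher at 1 h, 1 higher at 6 h, and 8 higher and 8 lower from 6 h to 24 h. With no filter on low FPKM these were 0, 1, 3 and 2, with more genes tested. A mean FPKM of at least 1 left 7 higher at 72 h and 6 higher from 24 h to 72 h, since fewer genes remain. Median-of-ratios scaling gave 3 and quantile normalization 2 higher from 6 h to 24 h, and the latter 7 higher at 72 h. Quantile normalization also turned the sign of the 72 h rises of Kcnmb1, Kcnn3 and Kcnt2. Asking also for a ratio of means over 2 left 1 higher and 4 lower at 6 h, 5 lower at 24 h and 6 lower from 24 h to 72 h.

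Dividing FPKM by the cardiomyocyte marker level, added after seeing the data, gave 8 lower at 6 h, 9 higher and 3 lower at 24 h, 20 higher and 3 lower at 72 h, 10 higher from 6 h to 24 h and 0 lower from 24 h to 72 h. Of all genes 6.19% were then lower at 6 h, 62.0% higher and 1.82% lower at 24 h, 92.1% higher and 1.20% lower at 72 h and 38.2% higher from 6 h to 24 h. The planned shift of log2(FPKM + 1) to equal cardiomyocyte markers gave 5 lower at 6 h, 11 higher and 1 lower at 24 h, 25 higher and 1 lower at 72 h, 13 higher and 1 lower from 6 h to 24 h, and 20 higher and 0 lower from 24 h to 72 h, with 95.7% of all genes higher at 72 h. By construction this shift raises a gene near 0 FPKM as much as an abundant one. Both settings turned the sign of called differences, listed here for genes given mouse by mouse. With the division, log2 fold changes became 0.064 for Kcna5, 0.094 for Kcnj5 and 0.0081 for Kcnj8 at 24 h, 0.49 for Kcna4, 0.0074 for Kcna5, 0.20 for Kcnd2, 0.18 for Kcnh2, 0.44 for Kcnj2, 0.16 for Kcnj8 and 0.44 for Kcnk3 at 72 h, and 0.0074 for Kcna4, 0.062 for Kcnd3, 0.14 for Kcnj2, 0.15 for Kcnj8 and 0.20 for Kcnk3 from 24 h to 72 h. Among the other genes, Kcna1 (0.54), Kcng2 (0.77), Kcna2 (0.14) and Kcnn1 (0.082) turned at 72 h too. With the shift, log2 fold changes became 0.12 for Kcna5, 0.14 for Kcnj5 and 0.031 for Kcnj8 at 24 h, 1.21 for Kcna4, 0.21 for Kcna5, 0.85 for Kcnd2, 0.11 for Kcnd3, 0.22 for Kcnh2, 0.63 for Kcnj2, 0.0058 for Kcnj5, 0.23 for Kcnj8 and 0.45 for Kcnk3 at 72 h, and 0.46 for Kcna4, 0.092 for Kcna5, 0.15 for Kcna7, 0.17 for Kcnd3, 0.26 for Kcnj2, 0.040 for Kcnj3, 0.20 for Kcnj8 and 0.20 for Kcnk3 from 24 h to 72 h.

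The labels give each group the replicate numbers 1 to 3. Over 45 pairs of mice with the same number the correlation of deviations ran from -0.33 to 0.41 and was over 0.1 in 5. Deviations within a group of 3 sum to 0, so these values cannot tell whether mice with the same number share more than it. With the replicate number as a block, 0 genes were higher at 1 h, 1 higher at 6 h, and 0 higher and 0 lower from 6 h to 24 h, a step in which 0.0075% of all genes were higher and 0 lower under the block.

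With 1 mouse left out in turn, the counts ran from 0 to 2 higher at 1 h, 1 to 3 higher and 6 to 14 lower at 6 h, 3 to 6 higher and 2 to 17 lower at 24 h, and 10 to 11 higher and 21 to 23 lower at 72 h. From 6 h to 24 h they ran from 0 to 4 higher and 0 to 4 lower, and from 24 h to 72 h from 10 to 11 higher and 8 to 18 lower. At 10 min they stayed at 0 higher and 0 lower, as did the lower genes at 1 h. The count of lower genes at 24 h was 3, 4 and 2 without control mouse 1, 2 and 3, while the share of all genes lower dropped from 11.4% to 2.75%, 2.99% and 3.51%. With no counts deposited, the precision of genes near 1 FPKM is not known.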
